A study of Mus musculus with 7 samples.

Results

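The TGF-beta and activin family genes described here are 10 secreted ligands and receptors measured in single cells of mouse hindlimb muscle: the ligands Tgfb1, Tgfb2, Tgfb3, Inhba, Mstn and Gdf11, and the receptors Tgfbr1, Tgfbr2, Tgfbr3 and Acvr2a. They were chosen by symbol among the 27998 genes counted, and every one of the 10 has a row. Droplet 3' single-cell RNA libraries, 7 in all from C56BL/6J mice, form 4 groups. Primary myoblasts (1 library) are satellite cells from hindlimbs of mice aged 3 months, sorted and then grown on collagen for 4 to 5 passages in a medium with 2.5 ng/µl bFGF and 10% horse serum. Injured MuSCs (2 libraries; MuSC stands for muscle stem cell or satellite cell) came by sorting from muscles that the labels name TE-EDL, 60 h after 2 µM notexin, a snake venom toxin that destroys myofibres. Homeostatic MuSCs (2 libraries) were sorted from muscle with no injury named. Total muscle (2 libraries) is all live cells sorted from digested hindlimb muscle of wild-type mice aged 3 months. The labels give no age for the homeostatic or the injured mice and do not say whether replicates came from separate animals, so that the spread between libraries may be technical.

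The TGF-beta ligands are made as latent complexes, held by latent TGF-beta binding proteins in the matrix and released by integrins, proteases and thrombospondin. Free ligand assembles the type II receptor Tgfbr2 with the type I receptor Tgfbr1, with Tgfbr3 (betaglycan) as a co-receptor that presents ligand, above all the Tgfb2 product, and the complex phosphorylates Smad2 and Smad3. Activin A (a dimer of the Inhba product), myostatin (Mstn) and Gdf11 use the type II activin receptors, among them Acvr2a, reach the same Smads and are bound by follistatin (Fst). In muscle, myostatin is the best known brake on growth, and TGF-beta signals restrain myoblast fusion and drive the matrix production of fibro-adipogenic cells.

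Cells were named by marker genes of clusters made without the family and pathway genes, and levels are given as CPM, the UMIs of a gene per 1000000 UMIs of the summed cells. Since CPM is relative to all RNA of a cell, it says nothing of the number of transcripts per cell. Myogenic-like cells numbered 4258 in the primary myoblast library, 1163 and 1866 in injured MuSC 1 and 2, 1492 and 1364 in homeostatic MuSC 1 and 2, and 90 and 129 in total muscle 1 and 2. They held 109121208 UMIs in primary myoblasts, 15292488 in the injured group, 6526453 in the homeostatic group and 770605 in total muscle, so that 3 UMIs, taken as the floor of detection, correspond to 0.0275, 0.196, 0.460 and 3.89 CPM in that order. The median UMIs per barcode ranged between 2245 and 24779 over the 7 libraries. At least 11 of the 12 myogenic markers were detected in the myogenic-like cells of every library, which is no separate support, since the clusters were named with them. They summed to 3936 CPM in primary myoblasts, 2047 and 2387 CPM in injured MuSCs, 8255 and 8915 CPM in homeostatic MuSCs and 6700 and 7691 CPM in total muscle. Injured MuSC 1 and 2 shared 253 cell barcodes (19.5% and 11.2% of theirs), while every other pair of libraries shared at most 16. Family genes called in a comparison with the injured libraries (adjusted p under 0.05) are also given without shared barcodes. In these comparisons the other family genes and the pathway genes are given with all barcodes only. In the myogenic-like cells the 10 fibro-adipogenic markers, of which 8 to 10 were detected in each library, summed to 66.7 CPM in primary myoblasts, 12.9 and 12.9 CPM in injured MuSCs, 1271 and 1353 CPM in homeostatic MuSCs and 2129 and 2163 CPM in total muscle. The 6 erythroid markers summed to 0.174 CPM in primary myoblasts, 3.42 and 2.31 CPM in injured MuSCs, 3848 and 939 CPM in homeostatic MuSCs and 100.2 and 82.0 CPM in total muscle.

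Promoter sequences are shown for 3 ligands with contrasting patterns in the results: Tgfb2, high in homeostatic MuSCs, Inhba, near 0 in injured MuSCs, and Mstn, seen mainly in primary myoblasts. Each runs 5′ to 3′ from 250 bases before the annotated start to 50 after it (RefSeq, GRCm38.p6), in lower case. Capitals mark every CANNTG (the E-box bound by Myod1 and Myog), TGANTCA or TGACGTCA (the cAMP response element) found on either strand. The pattern TGANTCA takes in the AP-1 sites TGACTCA and TGAGTCA. Of the 10 genes, 8 matched the promoter table, and Tgfb3 and Tgfbr3 did not.
Mstn (chr1:53061390-53061689, + strand): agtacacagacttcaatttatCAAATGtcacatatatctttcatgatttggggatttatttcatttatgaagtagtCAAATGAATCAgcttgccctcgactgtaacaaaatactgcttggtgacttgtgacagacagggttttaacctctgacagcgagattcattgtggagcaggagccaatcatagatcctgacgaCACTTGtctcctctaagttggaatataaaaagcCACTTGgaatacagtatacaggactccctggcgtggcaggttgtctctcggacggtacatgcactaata
Tgfb2 (chr1:186705940-186706239, - strand): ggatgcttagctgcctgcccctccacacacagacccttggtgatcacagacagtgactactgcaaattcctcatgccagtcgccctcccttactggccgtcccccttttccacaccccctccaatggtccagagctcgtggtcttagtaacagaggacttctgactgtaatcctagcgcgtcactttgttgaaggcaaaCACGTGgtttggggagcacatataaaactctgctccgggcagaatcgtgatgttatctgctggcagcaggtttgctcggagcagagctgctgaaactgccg
Inhba (chr13:16011601-16011900, + strand): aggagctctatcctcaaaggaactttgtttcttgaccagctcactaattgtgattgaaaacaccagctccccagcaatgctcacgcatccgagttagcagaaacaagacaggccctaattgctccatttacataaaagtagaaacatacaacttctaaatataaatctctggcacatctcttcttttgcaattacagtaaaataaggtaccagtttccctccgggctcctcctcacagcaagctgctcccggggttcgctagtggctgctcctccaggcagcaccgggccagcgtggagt
The Mstn window holds 4 CANNTG matches and 1 TGANTCA match, and the Tgfb2 window holds 1 CANNTG match. The TGANTCA match overlaps an E-box and reads TGAATCA, which is neither of the AP-1 sites named above. None of these stands in the Inhba window. Among 32851 promoter windows of this length, 72.3% hold CANNTG, 7.81% TGANTCA and 1.79% TGACGTCA. TATAAA, the letters of a TATA box, stands once in each of the 3 windows, and 13.6% of all windows hold it on either strand. It starts at -29 in Mstn, -31 in Tgfb2 and -91 in Inhba, relative to the annotated start. CAGAC, a Smad-binding element, was found 2 times in the Mstn window, 2 times in the Tgfb2 window and not in the Inhba window, and 49.6% of all windows hold it. These matches are letters in a window and were not tested as binding sites.

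Injured MuSCs were compared with homeostatic MuSCs to ask how stem cells sorted 60 h after injury differ from those of muscle with no injury named. All 3 TGF-beta ligands and the activin A subunit were lower after injury, and so were 3 of the 4 receptors. UMIs were summed per library and tested with edgeR's quasi-likelihood test, and a gene was called at a p adjusted over all genes (Benjamini-Hochberg) under 0.05. Tgfb2 had 10.2 and 14.0 CPM in injured MuSC 1 and 2, against 109.0 and 111.5 CPM in homeostatic MuSC 1 and 2. The injured libraries thus lay below both homeostatic ones, and the log2 fold change was -2.90 ± 0.19 (SE; edgeR adjusted p = 1.02e-09; -2.88 without shared barcodes). Tgfb3 had 1.25 and 0.461 CPM in injured MuSCs, against 20.5 and 12.5 CPM in homeostatic MuSCs, a log2 fold change of -3.87 ± 0.42 (edgeR adjusted p = 4.77e-07; -4.08 without shared barcodes). For Tgfb1, 7.17 and 5.53 CPM were measured in injured MuSCs, against 19.9 and 16.1 CPM in homeostatic MuSCs (-1.19 ± 0.25; edgeR adjusted p = 0.000489; -1.31 without shared barcodes).

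Inhba was represented by 1 UMI in injured MuSCs, at 0.114 and 0 CPM, against 30 UMIs in homeostatic MuSCs, at 4.10 and 5.14 CPM. Its pooled CPM, without scaling between libraries, was thus 70.3-fold lower after injury, with a 95% counting interval of 11.7 to 2868 (counting error only). In the scaled fit the log2 fold change was -5.44 ± 0.73 (edgeR adjusted p = 5.51e-06, and 6.41e-06 without shared barcodes). Gdf11, a close relative of myostatin, had 4.67 and 6.30 CPM in injured MuSCs, against 5.57 and 4.82 CPM in homeostatic MuSCs. The groups overlap, and the log2 difference was 0.35 ± 0.34 (edgeR adjusted p = 0.36). Mstn had no UMI in either injured library and 2 UMIs in homeostatic MuSC 1, at 0.586 CPM, and none in homeostatic MuSC 2. It lay at or under the floor in both groups, did not pass the filter on low counts and gives no fold.

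Among the receptors the co-receptor moved most. Tgfbr3 had 1.02 and 1.23 CPM in injured MuSCs, against 73.0 and 53.0 CPM in homeostatic MuSCs. The groups were far apart, with a log2 fold change of -5.50 ± 0.30 (edgeR adjusted p = 1.46e-10; -5.63 without shared barcodes). The type I receptor Tgfbr1 had 16.8 and 19.5 CPM in injured MuSCs, against 49.5 and 37.6 CPM in homeostatic MuSCs (-0.97 ± 0.20; edgeR adjusted p = 0.000415; -0.92 without shared barcodes). Tgfbr2, the type II receptor, had 10.7 and 11.2 CPM in injured MuSCs, against 20.5 and 19.9 CPM in homeostatic MuSCs (-0.59 ± 0.22; edgeR adjusted p = 0.021; -0.61 without shared barcodes). Acvr2a, the receptor of activins and myostatin, had 9.33 and 9.83 CPM in injured MuSCs, against 10.3 and 16.1 CPM in homeostatic MuSCs. Its homeostatic libraries differ more from each other than the injured ones do, and the log2 difference of -0.15 ± 0.26 did not pass (edgeR adjusted p = 0.60).

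In this comparison 7 of the 9 family genes tested were lower in injured MuSCs and the other 2, Acvr2a and Gdf11, did not pass, with a median log2 fold change of -1.19. Over all 10632 genes tested 75.8% were called, 38.5% higher and 37.3% lower, with a median of 0.02. The share of family genes called was thus close to that of all genes, while all 7 lay in 1 direction. Without shared barcodes the count was also 7. DESeq2 gave Tgfbr2 an adjusted p of 0.12, and leaving out injured MuSC 1 or 2 gave Tgfbr2 an adjusted p of 0.13 or 0.078 in edgeR. When each cell was thinned to 1000 UMIs, 6 family genes could be tested and 3 of them (Tgfb2, Tgfbr1 and Tgfbr3) were called lower. The fibro-adipogenic and erythroid marker sums given above moved with these groups, and their part in the results was not tested.

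**Figure D1:**
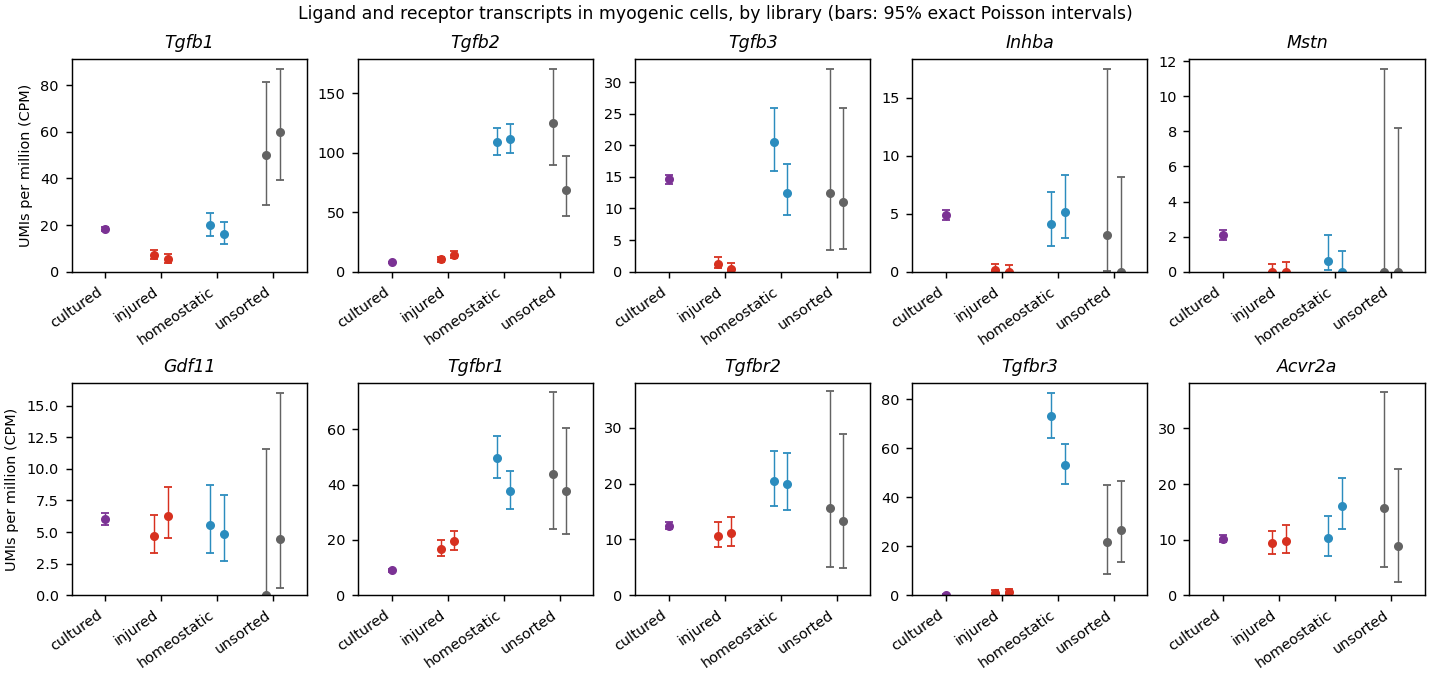
Levels of the 10 family genes (CPM, y axis) in myogenic-like cells, 1 point per library with its 95% exact Poisson interval (counting error only), for primary myoblasts (cultured), injured MuSCs, homeostatic MuSCs and total muscle (unsorted). Tgfb2 and Tgfbr3 lie at 109.0 and 111.5 CPM and at 73.0 and 53.0 CPM in homeostatic MuSCs, above every injured and cultured library, while Mstn is off 0 mainly in primary myoblasts.

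Primary myoblasts were set against injured MuSCs to compare cells grown in culture with cells sorted from injured muscle. Of the 10 genes, all tested, 4 were higher and 4 were lower in primary myoblasts, while 59.6% of all 12432 genes were called (34.1% higher, 25.5% lower). The median log2 fold change of the 10 was -0.53, against 0.20 over all genes. There is 1 myoblast library, assumed in the test to vary like the sorted groups. The 10 mature myofibre markers summed to 3006 CPM in primary myoblasts, 152 and 273 CPM in injured MuSCs and 29.9 and 42.1 CPM in homeostatic MuSCs, and their part in the results was not tested.

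Mstn had 228 UMIs (2.09 CPM) in primary myoblasts, against no UMI in either injured library. That is at least 10.7-fold higher, with the injured group set to 3 UMIs over its 2 libraries (edgeR adjusted p = 0.000861, and 0.00135 without shared barcodes). Inhba had 4.88 CPM in primary myoblasts, against 0.114 and 0 CPM in injured MuSCs. Its ratio of pooled CPM, without scaling, was 74.6 with a counting interval of 13.3 to 2950. In the scaled fit the log2 fold change was 5.46 ± 0.79 (edgeR adjusted p = 1.22e-05, and 2.46e-05 without shared barcodes). Tgfb3 had 14.6 CPM in primary myoblasts, against 1.25 and 0.461 CPM in injured MuSCs (log2 fold change 3.30 ± 0.40; edgeR adjusted p = 1.68e-06; 3.54 without shared barcodes). Tgfb1 had 18.4 CPM in primary myoblasts, against 7.17 and 5.53 CPM in injured MuSCs (0.82 ± 0.25; edgeR adjusted p = 0.0082; 0.95 without shared barcodes). Each of these 4 ligands was therefore above both injured libraries.

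Tgfb2 did not follow them, with 7.95 CPM in primary myoblasts against 10.2 and 14.0 CPM in injured MuSCs. Its log2 fold change was -1.29 ± 0.23 (edgeR adjusted p = 9.63e-05), and -1.28 without shared barcodes. Part of this fall came with the scaling between libraries (pooled CPM of 7.95 against 11.8), which moved the median over all genes from 0.90 to 0.20. Receptors were lower too: Tgfbr1 had 8.98 CPM in primary myoblasts against 16.8 and 19.5 CPM in injured MuSCs (-1.71 ± 0.24; edgeR adjusted p = 7.08e-06; -1.74 without shared barcodes). Tgfbr3 had 23 UMIs (0.211 CPM) in primary myoblasts against 1.02 and 1.23 CPM in injured MuSCs (-3.07 ± 0.54; edgeR adjusted p = 0.000107; -2.90 without shared barcodes). Acvr2a had 10.2 CPM in primary myoblasts against 9.33 and 9.83 CPM in injured MuSCs, so that its call as lower (-0.61 ± 0.25; edgeR adjusted p = 0.047) came with the scaling between libraries and the difference was 0.09 without scaling, where the median over all genes was 0.90. That call was lost without shared barcodes (edgeR adjusted p = 0.078). Gdf11 (6.01 CPM in primary myoblasts, 4.67 and 6.30 CPM in injured MuSCs) and Tgfbr2 (12.5 CPM in primary myoblasts, 10.7 and 11.2 CPM in injured MuSCs) did not pass, with log2 differences of -0.55 ± 0.29 and -0.51 ± 0.22 (edgeR adjusted p = 0.12 and 0.059). Without scaling 7363 genes were called higher and 1703 lower, against 4241 and 3174 with it. Tgfb1 was no longer called without injured MuSC 2 (edgeR adjusted p = 0.11) or with DESeq2 (adjusted p = 0.21), and DESeq2 did not call Mstn (adjusted p = 0.11).

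Against homeostatic MuSCs, all 4 receptors and Tgfb2 were called lower in primary myoblasts, and the call of Acvr2a depended on the processing. Of the 10 genes tested, 5 were lower and 1 was higher, while 71.5% of all 12432 genes were called (39.4% higher, 32.1% lower). Tgfbr3 had 0.211 CPM in primary myoblasts, against 73.0 and 53.0 CPM in homeostatic MuSCs (log2 fold change -8.57 ± 0.36; edgeR adjusted p = 1.03e-12). Tgfb2 had 7.95 CPM in primary myoblasts, against 109.0 and 111.5 CPM in homeostatic MuSCs (-4.17 ± 0.24; edgeR adjusted p = 4.98e-11). These were the largest falls among the 10 genes in this comparison. The fibro-adipogenic and erythroid marker sums moved with it too (66.7 CPM and 0.174 CPM in primary myoblasts, against 1271 and 1353 CPM and 3848 and 939 CPM in homeostatic MuSCs), and their part in the results was not tested.

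Tgfbr1 had 8.98 CPM in primary myoblasts against 49.5 and 37.6 CPM in homeostatic MuSCs (-2.66 ± 0.24; edgeR adjusted p = 2.55e-08), and Tgfbr2 had 12.5 CPM in primary myoblasts against 20.5 and 19.9 CPM in homeostatic MuSCs (-1.07 ± 0.23; edgeR adjusted p = 0.000532). Acvr2a had 10.2 CPM in primary myoblasts against 10.3 and 16.1 CPM in homeostatic MuSCs (-0.74 ± 0.28; edgeR adjusted p = 0.023), a call that was lost without homeostatic MuSC 2 (adjusted p = 0.23), with DESeq2 (adjusted p = 0.082) and without scaling (-0.36, adjusted p = 0.24), where the median over all genes was 0.57. The log2 differences were -0.35 ± 0.25 for Tgfb1, -0.56 ± 0.29 for Tgfb3, -0.29 ± 0.40 for Inhba and -0.17 ± 0.34 for the ligand Gdf11, and none of the 4 passed (edgeR adjusted p = 0.22, 0.096, 0.53 and 0.67). Without homeostatic MuSC 2, Tgfb3 was called lower at -0.89 (edgeR adjusted p = 0.021).

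Mstn, with 228 UMIs in primary myoblasts against 2 in homeostatic MuSCs, was called higher (edgeR adjusted p = 0.040). Its ratio of pooled CPM, without scaling, was 6.82 with a counting interval of 1.87 to 56.6. The call was lost without homeostatic MuSC 2 (adjusted p = 0.23), with RLE scaling (edgeR adjusted p = 0.056), with stricter cell filters (edgeR adjusted p = 0.051) and with DESeq2 (adjusted p = 0.48). Without scaling 5933 genes were called higher and 3161 lower, against 4898 and 3994 with it. The 2 myoblast comparisons share the myoblast library, and each of their values is given on its own.

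**Figure D2:**
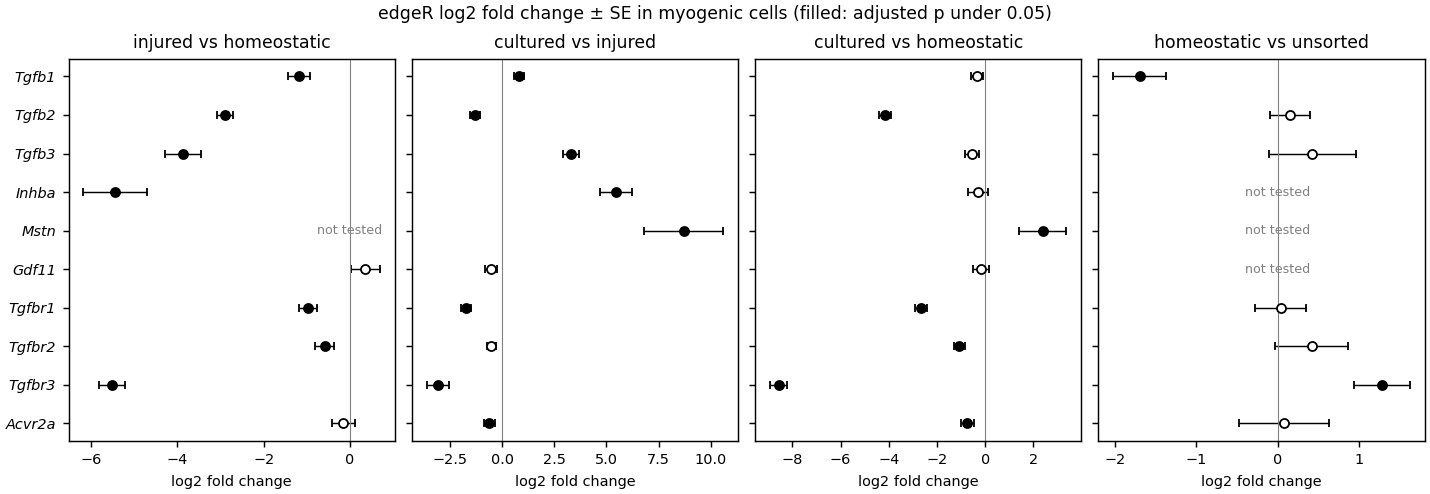
Log2 fold change (x axis) ± SE of the 10 family genes in 4 comparisons of summed myogenic-like cells: injured against homeostatic MuSCs, primary myoblasts (cultured) against injured MuSCs, primary myoblasts against homeostatic MuSCs, and homeostatic MuSCs against myogenic-like cells of total muscle (unsorted). Filled points passed an adjusted p of 0.05; 7 of 9 lie left of 0 and are filled in the first panel, and Mstn in the second panel is a fitted value against a group with no UMI.

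Homeostatic MuSCs were also compared with the myogenic-like cells of total muscle, which were taken from muscle without the stem cell sort. Few differences passed here: 8.4% of 8011 genes were called (4.33% higher, 4.07% lower), and of 7 family genes tested 1 was higher and 1 lower. Tgfb1 had 19.9 and 16.1 CPM in homeostatic MuSCs, against 50.1 and 59.8 CPM in total muscle (-1.70 ± 0.32; edgeR adjusted p = 0.0019), and it stayed called under each alternative in which it was tested. In the myogenic-like cells, the 10 endothelial markers summed to 22.3 and 27.6 CPM in homeostatic MuSCs, against 103.3 and 529.7 CPM in total muscle, and the 6 B cell markers summed to 1.17 and 1.93 CPM in homeostatic MuSCs, against 9.39 and 8.87 CPM in total muscle. Of the B cell markers, 1 was detected in each homeostatic library and 2 in each total muscle library, with Ms4a1 at 0 in all 4. The part of these markers in the difference in Tgfb1 was not tested.

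Tgfbr3 had 73.0 and 53.0 CPM in homeostatic MuSCs, against 21.9 and 26.6 CPM (19 UMIs) in total muscle (1.28 ± 0.35; edgeR adjusted p = 0.027). The call was lost without total muscle 1 or 2 or without homeostatic MuSC 1 (edgeR adjusted p = 0.065, 0.066 and 0.13). Tgfb2 had 109.0 and 111.5 CPM in homeostatic MuSCs, against 125.2 and 68.7 CPM in total muscle, so that the groups overlap (0.15 ± 0.24; edgeR adjusted p = 0.78). Tgfb3, Tgfbr1, Tgfbr2 and Acvr2a differed by 0.43 ± 0.54, 0.03 ± 0.32, 0.42 ± 0.45 and 0.08 ± 0.55 on the log2 scale, and none of the 4 passed (edgeR adjusted p from 0.65 to 0.97). Inhba, Gdf11 and Mstn had 1, 2 and 0 UMIs in the 219 myogenic-like cells of total muscle and were not tested. Without scaling 441 genes were called higher and 274 lower, against 347 and 326 with it.

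Total muscle shows which other cells carry the family. Its libraries were divided into 12 cell types, of which 11 were named from markers and 1 is called by its leading genes, Selp and Ackr1. These levels are descriptions in 2 libraries with no test, given with the value of each library, total muscle 1 and then 2. Tgfb1 was highest in B-like cells (497.4 and 545.0 CPM), followed by macrophage or monocyte-like cells (273.8 and 352.1 CPM) and endothelial-like cells (297.9 and 307.9 CPM), which overlap each other. The Selp and Ackr1 cluster (232.6 and 251.2 CPM) and T or NK-like cells (189.9 and 166.1 CPM) came next, each apart from its neighbours in the order. Myogenic-like cells (50.1 and 59.8 CPM) lay lower and overlap fibro-adipogenic-like cells (42.8 and 55.1 CPM). Of the Tgfb1 UMIs in the typed cells, 32.3% and 29.7% were in B-like cells and 24.2% and 25.3% in endothelial-like cells. Mature myofibre-like cells had the lowest mean, at 19.7 and 11.6 CPM from 4 UMIs.

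Tgfb2 had a different distribution. Tenocyte-like cells (166.7 and 190.7 CPM) and epithelial-like cells (154.3 and 180.7 CPM) were highest and overlap each other. Myogenic-like cells (125.2 and 68.7 CPM) and fibro-adipogenic-like cells (93.2 and 85.7 CPM) followed, also overlapping, and T or NK-like, B-like and macrophage or monocyte-like cells had at most 6.28 CPM in any library. Fibro-adipogenic-like cells, 564 and 714 in number, held 53.8% and 53.0% of the Tgfb2 UMIs. Tgfb3 was highest in tenocyte-like cells (79.2 and 94.9 CPM) and mural-like cells (37.0 and 117.7 CPM, from 15 UMIs), which overlap. Glial-like cells had 91.8 and 0 CPM of it, from 6 UMIs in 1 library, and fibro-adipogenic-like cells had 31.9 and 30.8 CPM.

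Inhba overlapped between tenocyte-like cells (46.6 and 76.5 CPM) and fibro-adipogenic-like cells (59.9 and 62.7 CPM). No UMI of it was found in B-like or T or NK-like cells, and in macrophage or monocyte-like cells it had 0 and 44.6 CPM, all 18 UMIs being in total muscle 2. Mstn was seen in 8 UMIs in all: 4 in mature myofibre-like cells (19.7 and 11.6 CPM) and 4 in tenocyte-like cells (1.17 and 2.90 CPM). It had none in the other 10 types. Gdf11 was sparse everywhere, with its highest CPM in glial-like and mural-like cells resting on 3 UMIs each, and 21 UMIs in fibro-adipogenic-like cells at 2.63 and 3.43 CPM.

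Of the receptors, Tgfbr2 stood highest in fibro-adipogenic-like cells (110.9 and 116.2 CPM), which held 64.2% and 67.6% of its UMIs, and the Selp and Ackr1 cluster came second (62.6 and 77.8 CPM), overlapping T or NK-like cells (54.9 and 64.7 CPM). Myogenic-like cells were next to last (15.7 and 13.3 CPM), and mature myofibre-like cells had no UMI. Tgfbr3 was highest in tenocyte-like cells (107.2 and 101.7 CPM), then fibro-adipogenic-like cells (91.5 and 93.0 CPM), against 21.9 and 26.6 CPM in myogenic-like cells. Tgfbr1 had 49.3 and 78.5 CPM in mural-like cells (12 UMIs), 64.1 and 59.1 CPM in tenocyte-like cells, which overlap, 54.3 and 52.7 CPM in endothelial-like cells and 43.8 and 37.7 CPM in myogenic-like cells. Acvr2a was low in every type and highest in endothelial-like cells (21.5 and 27.5 CPM), then fibro-adipogenic-like cells (14.5 and 19.0 CPM), which overlap myogenic-like cells (15.7 and 8.87 CPM). When cells were typed one by one by a marker gate instead of by cluster, 6 of the 10 genes kept the same highest type, and Inhba, Tgfb3, Tgfbr1 and Gdf11 did not, with fibro-adipogenic (56.0 CPM), mural (87.5 CPM), tenocyte (58.7 CPM) and mural (20.9 CPM) cells on top. In finer clusters Inhba had its highest mean in mural-like cells (176.6 CPM).

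Over the 12 types, the genes of at least 20 CPM in some type whose log2 levels went most closely with a family gene were as follows, by Pearson's r among 10180 genes. Tgfb1 was closest to Bcl2l11 (0.93) and Nfkbid (0.92), Tgfb2 to Spats2l (0.91) and Lurap1l (0.90), Tgfb3 to Cacna2d1 (0.91) and Scoc (0.89), and Inhba to Timp2 (0.93) and Lrrn4cl (0.88). Among receptors, Tgfbr1 was closest to Preb (0.96) and Ints8 (0.94), Tgfbr2 to Smap1 (0.93) and Os9 (0.93), Tgfbr3 to Creb3l1 (0.94) and Gpx7 (0.91), and Acvr2a to Adh1 (0.90) and Thrsp (0.81). Gdf11 was closest to Fance (0.91) and D3Ertd254e (0.89). It reached 20 CPM in glial-like cells only, at a mean of 22.2 CPM from 3 UMIs, and mural-like cells came next, also with 3 UMIs. Its r values thus rest on few UMIs and show no reliable pattern. The 12 points share their libraries and differ in depth, and the r values are descriptions.

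**Figure D3:**
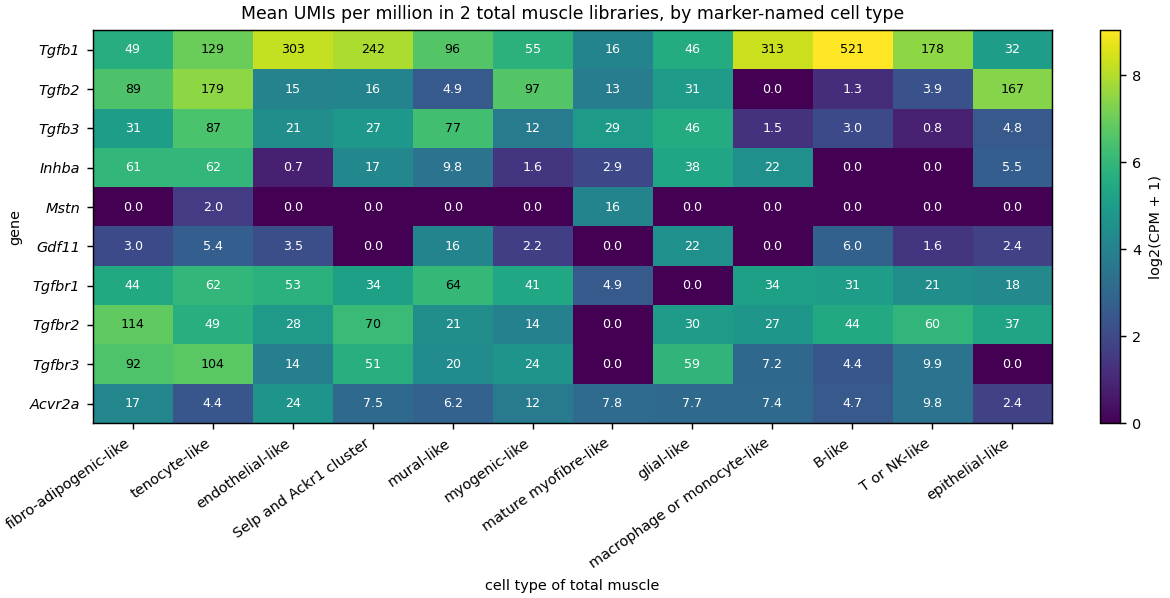
Mean CPM of the 10 family genes (rows) in 12 cell types of total muscle (columns), printed in each cell and coloured by log2(CPM + 1). Tgfb1 peaks in B-like cells at a mean of 521.2 CPM, Tgfb2 and Tgfbr3 peak in tenocyte-like cells at 178.7 and 104.4 CPM, and Mstn is off 0 only in mature myofibre-like and tenocyte-like cells.

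The genes that surround the family were taken from lists of latency and activation, antagonists, Smads, intracellular regulators and known target genes. Of 14 genes that hold and release latent TGF-beta tested after injury, 10 were lower and 3 higher in injured than in homeostatic MuSCs, with a median log2 fold change of -2.07 against 0.02 over all genes. Of all genes tested in this comparison 75.8% were called, 38.5% higher and 37.3% lower. Ltbp4, a latent TGF-beta binding protein, had 1.25 and 0.922 CPM in injured MuSCs, against 189.3 and 187.6 CPM in homeostatic MuSCs (-7.09 ± 0.23; edgeR adjusted p = 1.13e-12). Ltbp1, of the same family, fell less (-0.34 ± 0.15; edgeR adjusted p = 0.047), as did Itgb1, the beta chain of many integrins (-1.22 ± 0.14; edgeR adjusted p = 1.13e-06). Thbs1, the thrombospondin that frees latent TGF-beta, rose, with 147.5 and 285.2 CPM in injured MuSCs against 21.4 and 24.7 CPM in homeostatic MuSCs (3.52 ± 0.27; edgeR adjusted p = 7.4e-09). Chosen after its values were seen, Itgb6, the beta chain of an integrin that activates latent TGF-beta, had 97 UMIs in injured MuSCs (4.90 and 8.30 CPM) and none in homeostatic MuSCs, which is at least 13.8-fold higher with the homeostatic group set to 3 UMIs.

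Of the 5 antagonists tested, 4 were lower in injured MuSCs and the other, Dand5, did not pass, while 37.3% of all genes were called lower and 75.8% were called in either direction. Fstl1, a follistatin-related secreted protein, had 3.76 and 4.46 CPM in injured MuSCs, against 102.8 and 92.2 CPM in homeostatic MuSCs (-4.28 ± 0.21; edgeR adjusted p = 4.42e-11). Bambi, a decoy receptor, changed by -2.32 ± 0.26, Fst (follistatin) by -1.83 ± 0.43 and Fstl3 by -1.99 ± 0.41 (edgeR adjusted p = 6.21e-07, 0.0011 and 0.000386). Of the 4 Smads tested, 2 were lower, a smaller share called than the 75.8% of all genes: Smad3, a receptor-activated Smad, had 3.07 and 4.61 CPM in injured MuSCs against 25.2 and 29.6 CPM in homeostatic MuSCs (-2.56 ± 0.26; edgeR adjusted p = 2.32e-07), and the inhibitory Smad7 changed by -0.78 ± 0.20 (edgeR adjusted p = 0.0023). Smad2 and Smad4 differed by -0.14 ± 0.19 and 0.19 ± 0.18 and did not pass (edgeR adjusted p = 0.53 and 0.32).

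Among 16 intracellular regulators, 10 were lower and 3 higher in injured MuSCs, and the share called was near the 75.8% of all genes (38.5% higher, 37.3% lower). Pmepa1, a TGF-beta-induced inhibitor of Smad signalling, had 43.7 and 55.5 CPM in injured MuSCs against 565.8 and 565.0 CPM in homeostatic MuSCs (-3.22 ± 0.16; edgeR adjusted p = 7.19e-11). Tgif1, a Smad co-repressor, fell by 2.43 on the log2 scale, and Strap, a receptor-associated protein, by 0.38, while Fkbp1a, which holds the type I receptor inactive, rose by 1.78. Of 14 known target genes, 9 were lower and 2 higher, again a share called near that of all genes: Cyr61 changed by -2.08 ± 0.17 and Col3a1 by -3.23 ± 0.17, and Timp1 by 1.01 ± 0.15 (edgeR adjusted p from 1.32e-10 to 1.43e-05). Of the other ligands, 1 of 3 tested was lower, Inhbb, the activin B subunit, with 1 UMI in injured MuSCs against 59 in homeostatic MuSCs, 138-fold lower with a counting interval of 23.9 to 5552. In total muscle Ltbp4, Fstl1, Fst and Col3a1 had their highest mean in fibro-adipogenic-like cells, whose markers moved with this comparison as given above. The part of such RNA in these values was not tested. Of the other receptors, Acvr1 was higher (1.24 ± 0.24) and Eng and Acvr1b were lower (-3.85 ± 0.48 and -2.16 ± 0.49) among 4 tested.

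**Figure D4:**
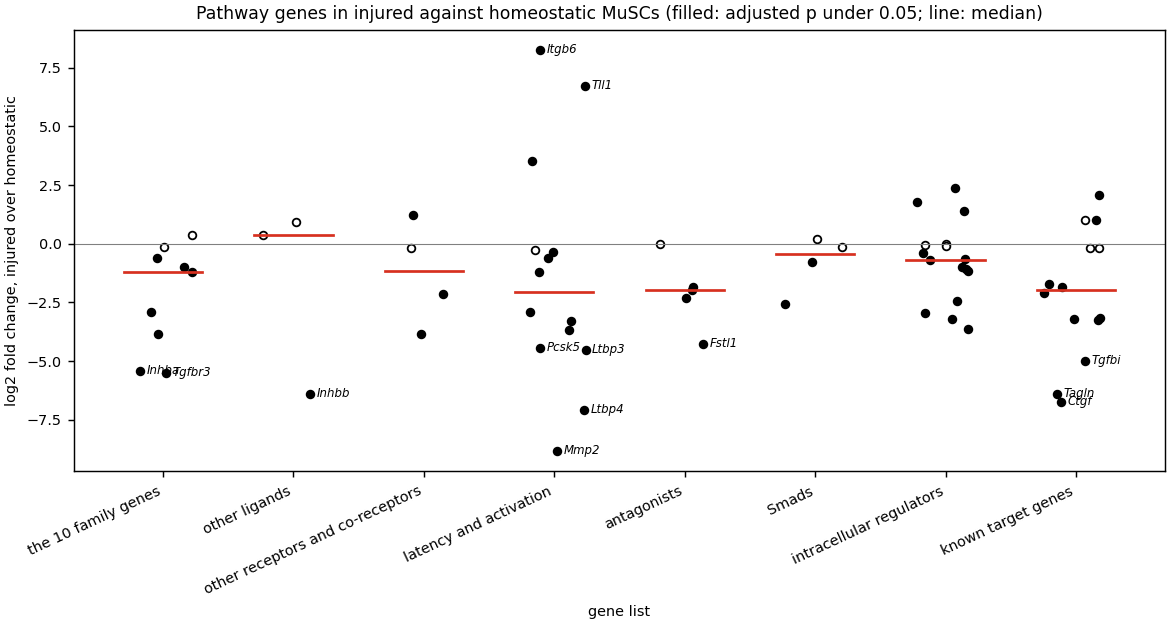
Log2 fold change (y axis) of the family and of 7 lists of pathway genes (x axis) in injured against homeostatic MuSCs, 1 point per gene tested, filled where the adjusted p is under 0.05, with the median of each list as a line and gene names where the change is beyond 4. Medians lie at -2.07 for latency and activation and -1.96 for known targets; the points of Itgb6 and Tll1 are fitted values against a group with no UMI.

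In primary myoblasts, 7 of 15 known target genes were higher and 2 lower than in injured MuSCs, while 59.6% of all genes were called (34.1% higher, 25.5% lower; with DESeq2 1836 genes were higher and 2807 lower). Higher were, among others, Acta2, smooth muscle actin (4.56 ± 0.19), Timp1 (2.05 ± 0.17), Cyr61 (0.73 ± 0.19) and Fn1, fibronectin (4.17 ± 0.28; edgeR adjusted p at most 0.0033 for the 4). Against homeostatic MuSCs the same list had 4 higher and 10 lower of 15, while 71.5% of all genes were called (39.4% higher, 32.1% lower). Of the 5 antagonists, 2 were higher in primary myoblasts than in injured MuSCs, Fst (38.0 CPM in primary myoblasts, 2.62 and 1.54 CPM in injured MuSCs; 3.45 ± 0.34; edgeR adjusted p = 1.06e-07) and Fstl1 (2.16 ± 0.23; edgeR adjusted p = 3.54e-07). Fst was also above homeostatic MuSCs (5.57 and 13.5 CPM; 1.64 ± 0.31; edgeR adjusted p = 0.00015). Of 16 latency and activation genes tested against injured MuSCs 7 were higher and 8 lower, with Thbs1, Ltbp1, Furin and Itgav lower (-2.56 ± 0.29, -0.68 ± 0.18, -1.47 ± 0.20 and -1.20 ± 0.20). In the same comparison Smad3 was higher, with 12.2 CPM in primary myoblasts against 3.07 and 4.61 CPM in injured MuSCs (edgeR adjusted p = 0.0043). Smad4 was lower (-0.90 ± 0.20), and Gdf15, a stress-induced ligand, was higher (1.81 ± 0.25). Of 16 intracellular regulators 4 were higher and 4 lower than in injured MuSCs, and 2 higher and 9 lower than in homeostatic MuSCs. Also against homeostatic MuSCs, 4 of 16 latency and activation genes were higher and 8 lower, 1 of 5 antagonists was higher and 3 lower, and 3 of 5 Smads were lower, to be read against the same 71.5% of all genes.

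Between homeostatic MuSCs and the myogenic-like cells of total muscle, known target genes had 6 lower and 1 higher of 14 in homeostatic MuSCs, while 8.4% of all genes were called (4.33% higher, 4.07% lower). Lower were, among others, Ctgf (79.1 and 132.0 CPM in homeostatic MuSCs, 400.7 and 343.5 CPM in total muscle; -1.90 ± 0.21; edgeR adjusted p = 7.69e-06) and Cyr61 (-1.15 ± 0.16), and Col3a1 was higher (edgeR adjusted p = 0.0021). Of 12 latency and activation genes, Ltbp1 (1.47 ± 0.26) and Mmp2 (1.32 ± 0.28) were higher and Thbs1 was lower (-1.37 ± 0.32). Among the pathway genes in total muscle, Pmepa1 (500.9 and 492.0 CPM) and Tgif1 (510.3 and 538.6 CPM) had their highest mean in myogenic-like cells. Fst had its highest mean in fibro-adipogenic-like cells (246.9 to 247.7 CPM), which mural-like cells overlap (29.4 to 419.1 CPM, from 37 UMIs). Ltbp4 did so too (535.3 to 579.0 CPM), overlapping the Selp and Ackr1 cluster (442.9 to 541.4 CPM). Fstl1 (979.3 to 1026 CPM) was highest in fibro-adipogenic-like cells, while Thbs1 (1540 to 1584 CPM) was highest in tenocyte-like cells. Smad7 (210.9 to 242.6 CPM) and Bambi (149.1 to 195.5 CPM) were highest in endothelial-like cells.

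Within the primary myoblast library, cells were divided by whether a UMI of Myog, the transcription factor of myoblasts that commit to differentiation, was detected. The 3004 cells with Myog had a median of 25350 UMIs and the 1254 cells without it 23058, and as cells of 1 library they allow no test. Mstn had 2.76 CPM in cells with Myog (220 UMIs), against 0.273 CPM in cells without it (8 UMIs). Tgfb3 had 18.2 CPM with Myog and 5.05 CPM without it. Tgfb2 had 9.67 CPM with Myog and 3.28 CPM without it, and Inhba had 5.39 CPM with Myog and 3.48 CPM without it. Fst had 45.2 CPM with Myog and 18.4 CPM without it. Tgfb1 had 18.2 CPM with Myog and 19.2 CPM without it, and Tgfbr2 had 12.3 CPM with Myog and 12.9 CPM without it. With each cell thinned to 1000 UMIs, which leaves 613 cells with Myog detected, Tgfb3 had 75.0 CPM (46 UMIs) with Myog against 7.68 CPM without it (28 UMIs), and Mstn had 11.4 CPM with Myog (7 UMIs) against 0.823 CPM without it (3 UMIs). Tgfb1 there had 3.26 CPM with Myog (2 UMIs) and 16.2 CPM without it (59 UMIs), and Inhba had 3.26 CPM with Myog (2 UMIs) and 3.84 CPM without it (14 UMIs). In injured MuSCs no Mstn UMI was found either in the 200 and 350 cells with Myog or in the 963 and 1516 cells without it.

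**Figure D5:**
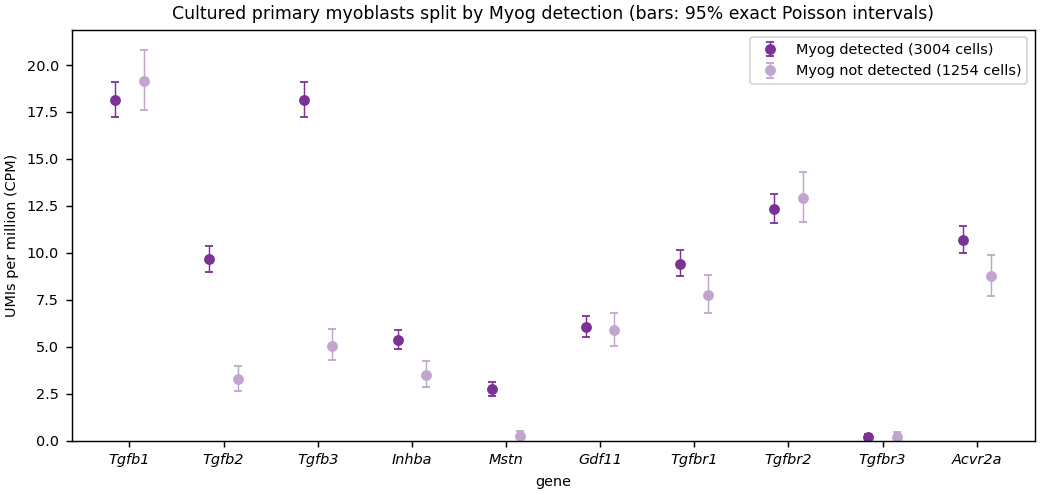
CPM (y axis) of the 10 family genes (x axis) in primary myoblasts with a Myog UMI detected (3004 cells) and without one (1254 cells), with 95% exact Poisson intervals for counting error only. Tgfb3, Tgfb2 and Mstn are higher in cells with Myog, at 18.2 against 5.05 CPM, 9.67 against 3.28 CPM and 2.76 against 0.273 CPM.

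The family genes lie on 9 chromosomes of GRCm38 in the GENCODE M21 annotation. Tgfb2 spans chr1:186622792-186705989 (- strand) and Mstn chr1:53061640-53068079 (+ strand), while Tgfbr3 spans chr5:107106570-107289629 (- strand) and Inhba chr13:16011851-16031621 (+ strand). No family gene has a near-identical copy, and none shares its strand with another counted gene. Annotated genes on the opposite strand overlap Tgfb2, Tgfb3, Inhba, Tgfbr3 and Acvr2a. The sources used here do not state whether counting used the strand, so whether reads from such a pair were separated is not known here.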

How the data were processed

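Droplet 3' single-cell libraries, 7 in all, were measured. The authors deposited tables of UMI counts, not normalized, with genes in rows and cell barcodes in columns, and per the submitters' processing notes Cell Ranger 2.2.0, Seurat 2.3.4, bcl2fastq 2.17.1 and the build mm10 were used; which step made the count matrices is not given in the sources used here. They hold 1295 to 4429 barcodes and 3319283 to 114382567 UMIs per library.

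Cells with under 200 genes or over 10% mitochondrial UMIs were left out, as were the highest doublet scores (Scrublet, 0.8% of barcodes per 1000). With scanpy 1.11.5 and leidenalg 0.10.2 (2000 variable genes without the family and pathway genes, 30 components, 20 neighbours, resolution 1), clusters were made and named from markers. All injured myogenic-like cells came from 2 clusters that were named by the share of markers raised. Each of the 2 had 6 of the 12 myogenic markers raised and 0 among its 10 leading genes. Rps12-ps3, Rpl10-ps3 and mt-Atp6 led both, and the part of this profile in the comparisons was not tested. Another cluster of 294 cells, mostly injured, stayed unnamed and out of the sums. A shallow cluster of 760 cells (median 745 UMIs) counts as myogenic-like. Each library's myogenic-like cells were added up to 1 column of UMI counts and tested with edgeR 4.0.16 (R 4.3.3; TMM, filterByExpr, quasi-likelihood), with p adjusted over all genes; SE was taken from the size of the log2 fold change and its F statistic (fold change over the square root of F). Both myoblast comparisons come from 1 fit of the 5 sorted and cultured libraries. The steps were tested on simulated data. Intervals and floors (95%, 3 UMIs) cover counting error only. Folds and ratios given with a counting interval or a floor are of pooled CPM, without scaling between libraries.

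Family genes and lists were chosen with earlier results of these data known. From each pathway list, up to 4 called genes with the highest mean CPM are named, except genes that are not reported here. Alternatives were RLE or no scaling, no filter, DESeq2 1.42.0, 7 libraries in 1 fit, a replicate block, a marker gate per cell (at least 2 markers), all cells, no shared barcodes, only barcodes with at least 8 G or C bases, cells thinned to 1000 UMIs, no doublets removed, stricter filters (500 genes, 5%), resolution 2 and each library left out. Near-identical copies were sought with blastn 2.17.0.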

Additional observations from a re-analysis of the deposited data

Results flagged for a closer look

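Inhba stood out in cells of the sorted injured libraries that no comparison used: the 30 tenocyte-like cells of injured MuSC 2 had 184 CPM (9 UMIs of 49028; 95% interval 83.9 to 348.5 CPM), against 46.6 and 76.5 CPM in the tenocyte-like cells of total muscle 1 and 2. Without shared barcodes the value was 196.0 CPM in 28 cells. It rests on 1 library, and the difference was not tested.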

How the results depend on the processing

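Between injured and homeostatic MuSCs, the count of 7 family genes lower was 6 to 7 with a library left out and 3 of 6 tested in thinned cells. Acvr2a, not called, ran from -0.47 to 0.17 with a library left out, turning positive without homeostatic MuSC 2. Between primary myoblasts and injured MuSCs, the 4 higher became 2 with DESeq2 and 1 of 7 tested in thinned cells, and the 4 lower became 2 in thinned cells; without scaling Gdf11 (0.15), Tgfbr2 (0.19) and Acvr2a (0.088) were positive. Between primary myoblasts and homeostatic MuSCs, the 1 gene higher, Mstn, lost its call (a count of 0) with RLE scaling, DESeq2 and stricter filters. With 7 libraries in 1 fit, the marker gate per cell, GC-rich barcodes and thinned cells it did not pass the filter on low counts and was not tested, so that the count was 0 there too. With a library left out the count was 0 to 1. Positive there were Tgfb1 (0.031), Inhba (0.083) and Gdf11 (0.21) without scaling, and Gdf11 without a filter (0.0555) or with GC-rich barcodes (0.036), none of them called. Between homeostatic MuSCs and total muscle, the 1 gene higher, Tgfbr3, became 0 with DESeq2, the gate, GC-rich barcodes, thinned cells and stricter filters, and 0 to 1 with a library left out, and the 1 lower became 3 with all cells. Signs turned there for Tgfb3 (-0.43) and Tgfbr2 (-1.51) with all cells, Tgfbr2 in thinned cells (-0.22), and Tgfbr1 without shared barcodes (-0.020) and with stricter filters (-0.13). With a library left out, Tgfb2 ran from -0.25 to 0.61, Tgfbr1 from -0.17 to 0.28 and Acvr2a from -0.33 to 0.49. The marker gate per cell kept the highest cell type of 6 of the 10 genes. The causes were not tested. Over all alternatives, single genes kept direction and call 143 times after injury, lost the call 6 times and changed sign 1 time. The same numbers were 125, 14 and 3 (2 gained a call) for primary myoblasts against injured MuSCs, 126, 9 and 5 (4 gained) against homeostatic MuSCs, and 92, 9 and 9 (1 gained) for homeostatic MuSCs against total muscle.

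The median log2 fold change over all genes was -0.27, 0.90, 0.57 and 0.11 without scaling, against 0.02, 0.20, 0.19 and 0.03 with it, in the same 4 comparisons. DESeq2 called 1836 genes higher and 2807 lower in primary myoblasts than in injured MuSCs, and thinned cells gave 2523 higher and 2182 lower, against 4241 and 3174. Between homeostatic MuSCs and total muscle, 347 higher and 326 lower became 162 and 229 with DESeq2, 192 and 210 with the gate, 217 and 216 with GC-rich barcodes, 105 and 133 in thinned cells and 3519 and 4268 with all cells. The same counts were 228 and 202 without total muscle 2, 137 and 164 without homeostatic MuSC 1 and 226 and 181 without homeostatic MuSC 2.

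Samples with the same replicate number did not deviate together (r = 0.006, -0.007 and -0.035 across 4781 genes, which are not independent replicates), and the main fits treat them as unpaired. With so few libraries per group, these r values cannot exclude a shared animal or day. A fit with the replicate number as a block gave 7 lower after injury, 4 higher and 4 lower against injured MuSCs, 1 higher and 5 lower against homeostatic MuSCs, and 1 higher and 1 lower against total muscle, as without it. In 90 and 129 myogenic-like cells, total muscle cannot show genes near its floor of 3.89 CPM.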
